A study of Mus musculus with 6 samples.

Results

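The genes described here are 9 transcripts, of the Dppa family and of other genes known for expression in embryonic stem (ES) cells: Dppa2, Dppa3, Dppa4, Dppa5a, Utf1, Fbxo15, Tcl1, L1td1 and Sall4. They were taken as every probe set of an Affymetrix expression array (a group of short probes that reads 1 transcript) whose platform annotation names exactly 1 gene, that gene being a member. This gave 13 probe sets for the 9 genes, among 18193 genes named in this way on the array. RNA came from undifferentiated mouse ES cells of 2 lines, the Dicer -/- line 27H (27H10 in the series title; null cells here) and the Dicer +/- line D4 (heterozygous cells), with 3 arrays each. Dicer is the enzyme that processes hairpin precursors to microRNAs; by their labels, null cells lack both copies of its gene and heterozygous cells keep 1. Each genotype is a single cell line, a wild-type line was not analysed here, and an effect of genotype cannot be told apart from one of the line. Separate cultures are not stated for the replicates, so the p-values reflect the scatter among these 6 samples alone, and that scatter may be technical. All 6 arrays carry the same day of analysis, and no other batch is labelled.

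The Dppa genes (developmental pluripotency associated) were grouped by where they are expressed, not by sequence. Dppa2 and Dppa4 encode SAP-domain proteins that bind DNA and each other, and in mouse ES cells they are needed for expression of Dux and other genes of the 2-cell embryo. Dppa3, also called Stella, is a maternal factor and germ cell marker that keeps the methylation factor UHRF1 away from chromatin, and Dppa5a (Esg1) encodes a KH-domain RNA-binding protein. Sall4 and Utf1 act in the nucleus as a zinc finger transcription factor and a chromatin-associated protein. Fbxo15 is an F-box protein, the kind that brings substrates to the SCF ubiquitin ligase, Tcl1 binds and activates AKT kinases, and L1td1 is an RNA-binding protein derived from a LINE-1 retrotransposon.

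Both lines carried the transcripts of ES cells. Pou5f1 (Oct4) read 12509 ± 612 in null and 13643 ± 381 in heterozygous cells (intensity units, SD, n = 3). The summed intensity of 13 ES cell genes was 77733 to 79856 in null arrays and 83815 to 85276 in heterozygous arrays. Much of that gap came from Lin28a, at 864 in null and 5094 in heterozygous cells, and the others differed in both directions. Dicer1 itself read 1197 ± 62.2 in null and 1098 ± 39.2 in heterozygous cells with its brighter probe set; the deleted part is not given in the sources used here, so this probe set checks nothing about the genotype. Median intensity per array was 44.9 to 46.5 in null and 49.1 to 52.7 in heterozygous arrays, and Pearson correlations over the tested genes ranged within a line over 0.967 to 0.973 and across lines over 0.924 to 0.928. Genes were tested with limma on log2 intensity, 1 probe set per gene, with Benjamini-Hochberg adjustment over all 12927 genes that passed a filter on low values. A gene was called, and is said to have risen or fallen, at an adjusted p under 0.05 together with a log2 difference (null minus heterozygous) of at least 1, which is 2-fold.

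Dppa3 and Dppa4 fell in null cells, and the other members differed by less than 2-fold. Of the 9 genes, 2 were called lower and 0 higher, whereas 6.2% of all tested genes were called lower and 7.23% higher. Without the size limit, 6 members were lower at the adjusted p (Dppa2, Dppa3, Dppa4, Utf1, Tcl1 and Sall4), against 24.3% of all genes, and 2 were higher (Fbxo15 and L1td1), against 24.5%. Thus 8 of 9 passed the adjusted p, beside 48.8% of all genes, and Dppa5a did not. The shares of all genes given here are not matched for intensity. The members, Dppa3 apart, were bright genes with standard errors from 0.06 to 0.12. Of the members, 8 had null values wholly on one side of the heterozygous values, a separation seen in 57.2% of all genes: 6 were wholly below (28.9% of all genes) and 2 wholly above (28.3%). The median log2 difference of the members was -0.27, with a range from -1.53 to 0.28, and that of all tested genes was -0.01. All 9 genes passed the filter on low values with at least 1 probe set, and 12 of the 13 probe sets passed. Of these 12, tested among all probe sets, 9 were lower at the adjusted p, beside 21.2% of all probe sets, and 2 were higher, beside 18.9%.

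**Figure D1:**
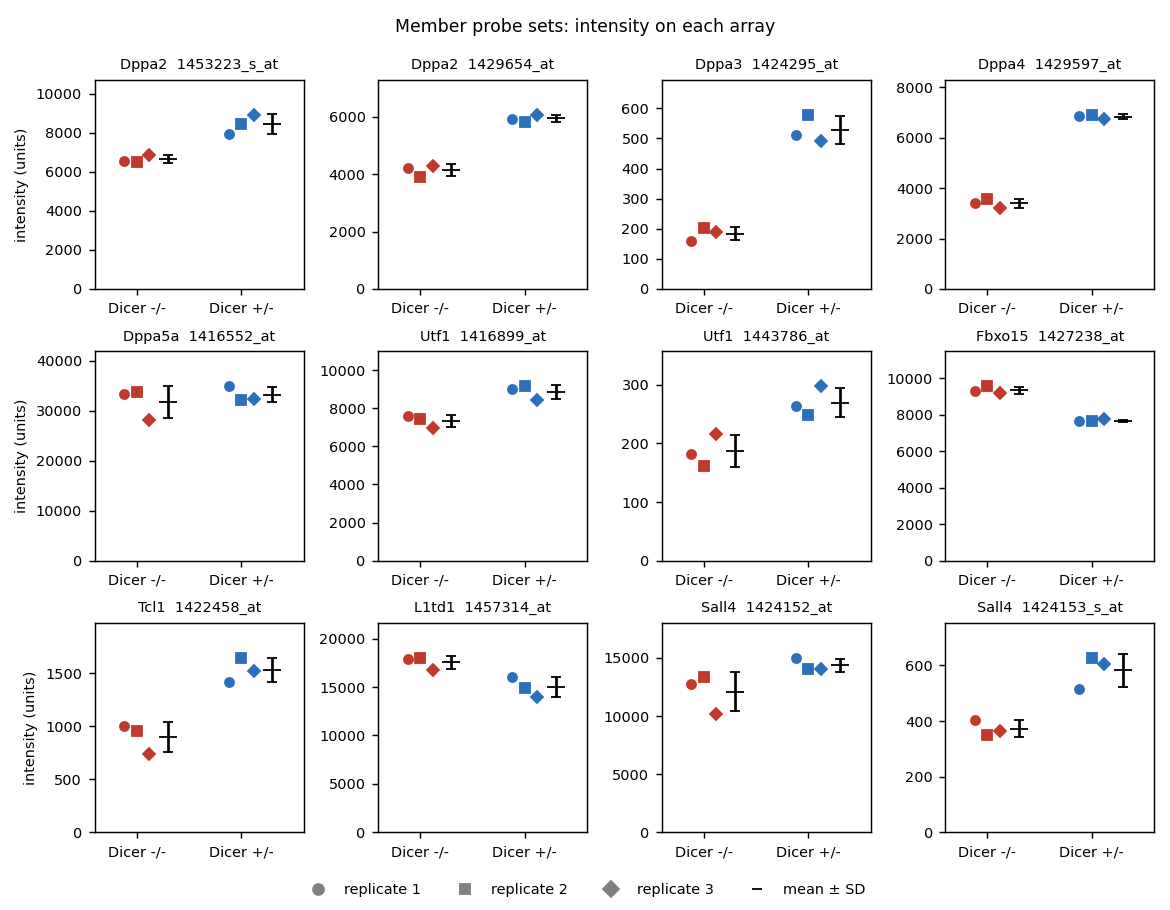
Intensity (units, linear axes from 0) of the 12 tested member probe sets on each array, with null arrays (Dicer -/-, red) left of heterozygous arrays (Dicer +/-, blue), marker shapes for replicate numbers and the mean ± SD of 3 arrays in black. Dppa3 and Dppa4 show the widest gaps between the lines, the Fbxo15 and L1td1 values of null cells lie above those of heterozygous cells, and the Dppa5a values overlap.

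Dppa3, the maternal and germ cell factor, had the largest difference of the 9. Its probe set 1424295_at read 159, 202 and 190 in null arrays, against 513, 579 and 491 in heterozygous arrays. Every null array lay below every heterozygous array, and the null mean of 183 ± 22.3 stood against a heterozygous mean of 528 ± 46.1 (SD, n = 3). The log2 difference was -1.53 ± 0.14 (SE), 2.89-fold lower in null cells (limma, adjusted p 4.13e-06). Of all tested genes, 3.38% had a lower log2 difference. Transcript was still measured in null cells, at 34.7% of the heterozygous intensity when the log2 difference is turned back to a ratio. In such bulk RNA, fewer cells that express a gene and less RNA per cell cannot be told apart.

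Dppa4 was the other called member, with a smaller fall. It read 3419, 3566 and 3206 in null arrays and 6863, 6915 and 6728 in heterozygous arrays. The replicates of a line stayed close together, with a coefficient of variation of 5.33% in null and 1.41% in heterozygous cells. The log2 difference was -1.01 ± 0.06 (SE), 2.01-fold lower (limma, adjusted p 3.27e-07) with a 95% interval from -1.15 to -0.87. The interval includes the threshold of size, so the call of Dppa4 rests on where that threshold lies. Without null replicate 3 the log2 difference was -0.97, and with arrays centred on their medians, which moved the median of all genes to 0.14, it was -0.86. After quantile normalization it was -1.01 and still called.

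Dppa2, the partner of Dppa4 and its neighbour on chromosome 16, was lower by a smaller amount with both of its probe sets. The brighter one, 1453223_s_at, read 6581, 6513 and 6896 in null arrays and 7952, 8472 and 8943 in heterozygous arrays. The other, 1429654_at, read 4235, 3904 and 4284 in null arrays and 5942, 5816 and 6081 in heterozygous arrays. With either probe set all null arrays were below all heterozygous arrays, at log2 differences of -0.34 ± 0.06 (SE) and -0.52 ± 0.06 and limma adjusted p values over all tested probe sets of 0.0018 and 0.000112. After each array was centred on its median, Dppa2 was at -0.19 (adjusted p over genes 0.0454), and after quantile normalization at -0.34 (0.00063). The 95% interval of Dppa2 over genes (brighter probe set) was -0.48 to -0.20 and did not overlap that of Dppa4, -1.15 to -0.87. For 1429654_at the interval over probe sets was -0.67 to -0.38. Both genes were read on the same arrays. Whether Dppa4 differed more than Dppa2 was not tested, and the 2 probe sets of Dppa2 themselves differed in size.

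The gene on the other side of Dppa2, Morc1, which encodes an ATPase that silences transposons in the male germ line, was lower too. Morc1 averaged 2826 ± 98.4 in null and 4978 ± 676 in heterozygous cells (SD, n = 3), a log2 difference of -0.81 (limma, adjusted p 2.4e-05). Dppa4, Dppa2 and Morc1 follow each other with 0 protein-coding genes between neighbours in RefSeq's gene order (GRCm38.p6). Farther out on the Dppa4 side, Nectin3, an adhesion molecule, was at -0.18 (limma adjusted p 0.113) and Cd96, a receptor of lymphocytes, was at 1.99 (0.0569) from low intensities of 57.7 ± 12.2 in null and 19.8 ± 16.4 in heterozygous cells. Cd96 reached the threshold of the test in 6 alternatives, among them the fit without heterozygous replicate 1 (2.68). Trat1, beyond Morc1, was at 0.12 with a standard error of 1.01.

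Genes reported to depend on Dppa2 and Dppa4 in mouse cells, or to mark the 2-cell embryo, were mostly not measurable here: of 16 listed, 8 were annotated with 1 gene and 5 were tested. Of these, 0 were called higher and 1 lower. Usp17la, a deubiquitinase gene of a multicopy family, averaged 89.0 ± 17.5 in null and 374 ± 22.5 in heterozygous cells (SD, n = 3), 4.24-fold lower (limma, adjusted p 3.01e-06). Syce1, a component of the synaptonemal complex, was lower by less than 2-fold, at a log2 difference of -0.81 (adjusted p 0.00011). Duxf3, which belongs to the Dux locus, was at -0.26, and the cardiac homeobox gene Nkx2-5 at -0.11, both at low intensity and without passing (0.77 and 0.824). Zfp352 was at -1.77, from 30.7 in null and 69.8 in heterozygous cells, with an adjusted p of 0.131; it was called lower in 3 alternatives, among them the fit without null replicate 1 (-2.63). The Zscan4 cluster was read by a probe set that names several genes and was not used. The list's median was -0.81, beside -0.01 for all genes, and ranged from -1.45 to -0.40 over 18 alternatives.

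The tested genes around Dppa3 on chromosome 6 differed in both directions. Gdf3, a TGF-beta family ligand next to Dppa3, averaged 6680 ± 622 in null and 4706 ± 182 in heterozygous cells (SD, n = 3), a log2 difference of 0.50 (limma, adjusted p 0.000225). On the other side Nanog, a core pluripotency factor, was at 0.08 (0.263). Apobec1, which edits cytidine in RNA, was higher at 0.42 (adjusted p 0.0146). Slc2a3, which encodes the glucose transporter GLUT3, was lower at -0.55 (1.22e-05); the mean over its probe sets gave -1.12 and the setting without probe sets that may share sequence gave -1.41.

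**Figure D2:**
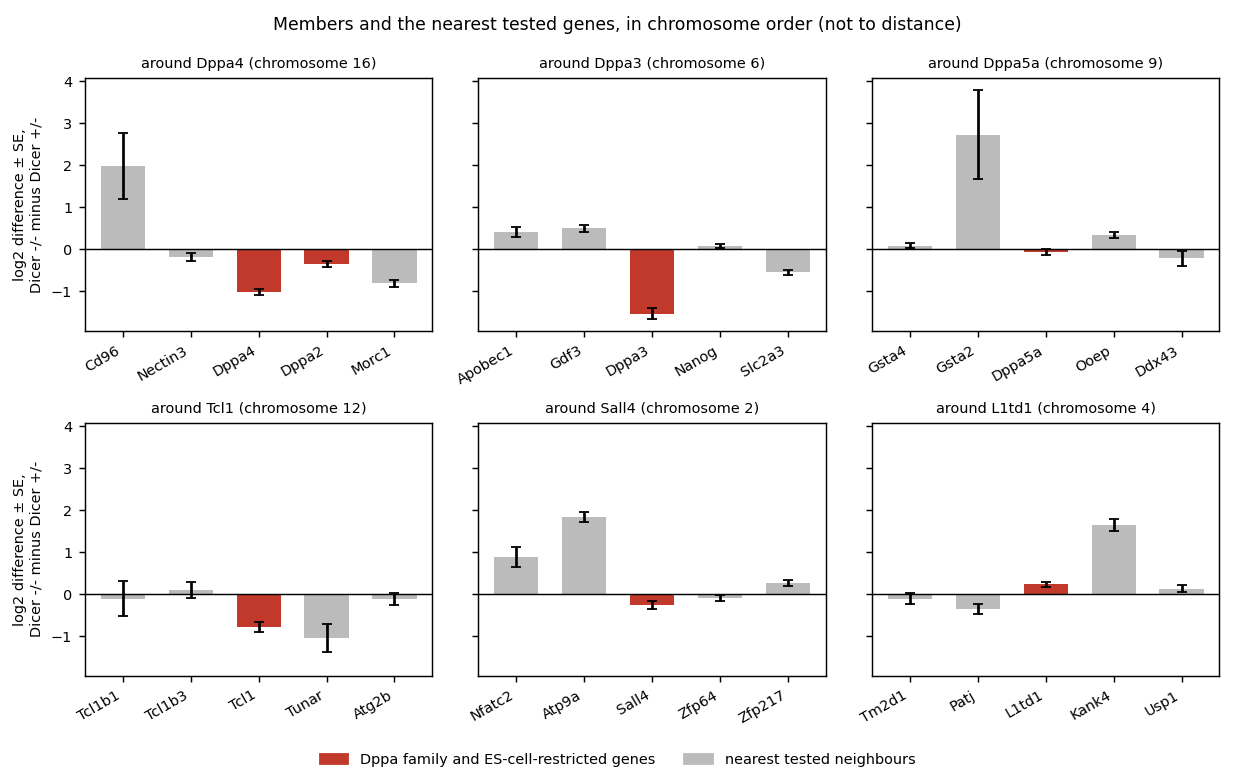
Log2 difference (null minus heterozygous, ± SE from limma) of 6 members or member pairs and of the nearest tested genes on either side, in chromosome order and not to distance, with members in red and neighbours in grey. Dppa4, Dppa2 and Morc1 were all below 0, whereas Dppa3 at -1.53 stood beside Gdf3 at 0.50 and Nanog at 0.08.

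Of 9 tested genes that act with Dppa3 on DNA methylation or belong to other maternal factors, 0 were called in either direction. Without the size limit 4 were lower and 2 higher, 3 did not pass (the maternal genes Tle6 and Zar1 and the imprinting factor gene Zfp57), and the median was -0.25. Tet1, an enzyme that oxidises 5-methylcytosine, averaged 2550 ± 308 in null and 4166 ± 368 in heterozygous cells (SD, n = 3), a log2 difference of -0.71 (limma adjusted p 8.79e-05), and its relative Tet2 was at -0.59 (0.0005). Uhrf1, which recruits the maintenance methyltransferase, was at -0.17 (0.0411), and Dnmt1, that methyltransferase, at 0.20 (0.02). Of 10 genes of primordial germ cells, where Dppa3 is a marker, 1 was called higher and 1 lower. The repressor Prdm14 rose to 1318 ± 139 in null cells, against 445 ± 26.6 in heterozygous cells, and the RNA-binding protein gene Lin28a fell to 864 ± 86.5 in null cells, against 5094 ± 292 in heterozygous cells. Prdm1 (Blimp1), a further germ cell determinant, was higher at 0.64 (adjusted p 0.000559), and Dazl, an RNA-binding protein of germ cells, lower at -0.95 (0.000392); Dazl was called without null replicate 2 (-1.02) or 3 (-1.01). The median of these 10 genes was 0.05.

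The RNA-binding protein gene Dppa5a gave very bright signals that did not separate the lines. It read 33380, 33782 and 28128 in null arrays and 34856, 32144 and 32384 in heterozygous arrays. The groups overlapped, and the lowest value came from null replicate 3, the array with the lowest maximum of all (36104, beside 39775 to 45902 on the others). Null minus heterozygous, the log2 difference was -0.06 ± 0.08 (SE; limma, adjusted p 0.511) with a 95% interval from -0.23 to 0.10. The sign turned when each array was centred on its median (0.090) and when null replicate 3 was left out (0.021). How far saturation compresses signals of this size was not tested. Its neighbour Ooep, a factor of the subcortical maternal complex that lies next to it on chromosome 9, was higher at 0.35 (adjusted p 0.00302), and Khdc3 (Filia), another KH-domain maternal factor, was lower at -0.44 (0.00115). The glutathione transferase gene Gsta4 was at 0.09 (0.275) and the helicase gene Ddx43 at -0.21 (0.349). Gsta2, another glutathione transferase, was at 2.73 from intensities of 46.7 ± 4.42 in null and 11.0 ± 11.1 in heterozygous cells, with an adjusted p of 0.0527. Gsta2 was called higher in 6 alternatives, among them log2(intensity + 16), where it was at 1.29 (0.0201), and the fit without heterozygous replicate 2 (3.60).

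Among the nuclear factors, Sall4 was slightly lower, and its probe sets differed in size. The bright probe set 1424152_at read 12766, 13342 and 10166 in null arrays and 14997, 14036 and 14076 in heterozygous arrays. All null arrays lay below the heterozygous ones, but null replicate 2 was at 13342 and heterozygous replicate 2 at 14036, a narrow gap. The log2 difference was -0.26 ± 0.09 (SE; limma, adjusted p 0.0365), and it did not pass in 7 of 18 alternatives, among them the fits without heterozygous replicate 1 (-0.23, adjusted p 0.117), 2 (-0.27, 0.0722) or 3 (-0.27, 0.0643). It was -0.14 (0.046) without null replicate 3, and -0.10 (0.391) when each array was centred on its median. Quantile normalization gave -0.25 (0.014). The dimmer probe set 1424153_s_at read 405, 349 and 365 in null arrays and 515, 626 and 605 in heterozygous arrays. Its log2 difference was -0.64 ± 0.12, with an adjusted p over all probe sets of 0.00158.

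The Sall family, zinc finger transcription factors that recruit the NuRD corepressor, held members on either side of 0. Sall2 fell to 123 ± 39.2 in null cells, against 255 ± 19.1 in heterozygous cells (SD, n = 3), a log2 difference of -1.10 (limma, adjusted p 0.00247). Sall2 was short of the size threshold without null replicate 1 (-0.81), on log2(intensity + 16) (-0.999) and when each array was centred on its median (-0.95). Sall3 averaged 365 ± 85.8 in null and 189 ± 37.6 in heterozygous cells, a log2 difference of 0.94 (0.00241), and passed the size limit after each array was centred on its median (1.10), without null replicate 1 (1.12) and without heterozygous replicate 1 (1.01) or 2 (1.05). Sall1 was higher at 0.59 (0.0131). Of the 15 genes of the Sall and NuRD list, which leaves Sall4 out, 1 was called lower and 0 higher, with a median of -0.05. The NuRD subunit Mta2 was lower at -0.60 (0.00222), its relative Mta3 was higher at 0.53 (0.000105), and the ATPase Chd4 was lower at -0.40 (0.000435).

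Around Sall4 on chromosome 2, Atp9a, which encodes a putative phospholipid flippase, rose to 1154 ± 132 in null cells, against 323 ± 32.1 in heterozygous cells (SD, n = 3), a log2 difference of 1.84. The setting without probe sets that may share sequence replaces its probe set and gave 0.41 (limma, adjusted p 0.236). Nfatc2, a calcium-regulated transcription factor, was higher at 0.89 (0.00918) and was called without heterozygous replicate 1 (1.11) and with arrays centred on their medians (1.04). Zfp64 and Zfp217, zinc finger genes on the other side, were at -0.09 (0.306) and 0.27 (0.0184).

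Utf1 was lower by less than 2-fold. Its main probe set 1416899_at read 7566, 7450 and 6983 in null arrays and 9009, 9147 and 8454 in heterozygous arrays. The groups did not overlap, and replicate 3 was the lowest in each line. The log2 difference was -0.27 ± 0.06 (SE), 1.21-fold lower (limma, adjusted p 0.00332). After each array was centred on its median it was -0.12, with an adjusted p of 0.22, and after quantile normalization -0.27 (0.0014). The second probe set, 1443786_at, read 182, 162 and 216 in null arrays and 263, 248 and 297 in heterozygous arrays, again without overlap, at a log2 difference of -0.54 ± 0.16 and an adjusted p over all probe sets of 0.0205. The third, 1458333_x_at, ranged from 3.24 to 21.5 in null and from 2.39 to 38.0 in heterozygous arrays and was not tested.

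Of 8 genes linked to Utf1 in mouse ES cells through Polycomb complex 2, the Arf transcript or mRNA decapping, 1 was called higher and 0 lower, with a median of 0.05. Cdkn2a, which encodes p16 and ARF, rose to 111 ± 11.3 in null cells, against 51.3 ± 12.01 in heterozygous cells (SD, n = 3; limma, adjusted p 0.00729); its log2 difference of 1.13 was 0.998 without heterozygous replicate 1 and 0.92 on log2(intensity + 16), both short of the size threshold. Suz12, a Polycomb subunit, was higher at 0.62 (2.14e-05), and the decapping activator Dcp1a was lower at -0.32 (0.044). Of the nearest tested genes around Utf1 on chromosome 7, Nkx6-2, Kndc1, Spef1l and Adam8, all of low intensity, 0 passed, with adjusted p values from 0.0523 to 0.917.

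Fbxo15, the F-box protein, was the member with the largest difference in the other direction. It read 9280, 9564 and 9175 in null arrays and 7641, 7642 and 7752 in heterozygous arrays. Every null array was above every heterozygous array, and the heterozygous arrays varied by 0.834% (coefficient of variation), the smallest spread among the members. Its log2 difference stood at 0.28 ± 0.06 (SE), 1.22-fold higher (limma, adjusted p 0.00133). After each array was centred on its median it was 0.44, beside a median of 0.14 for all genes.

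The SCF ligase that F-box proteins join was measured with 9 genes, of which 0 were called; 5 passed the adjusted p as higher and 3 as lower, and the median was 0.32. Skp2, the F-box protein that targets cell cycle inhibitors, averaged 4294 ± 267 in null and 2778 ± 65.7 in heterozygous cells (SD, n = 3), a log2 difference of 0.63 (limma adjusted p 1.82e-05). Fbxo5 (Emi1), an inhibitor of the anaphase-promoting complex, was lower at -0.89 (2.55e-06). The scaffold Cul1 was lower at -0.37 (0.00364), and the adaptor Skp1, through which F-box proteins bind, was at -0.01 (0.947). Around Fbxo15, the mitochondrial import gene Timm21 was lower at -0.83 (2.94e-05), Cyb5a (cytochrome b5) was lower at -0.35 (0.0227) and the dipeptidase gene Cndp2 was higher at 0.68 (1.53e-05). Neto1 was at -1.41 (0.066), from 21.1 in null and 52.7 in heterozygous cells, and was called lower with eBayes without an intensity trend (0.0326).

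Tcl1, the AKT coactivator, had the third largest difference of the members. It read 1003, 960.1 and 738 in null arrays and 1421, 1645 and 1527 in heterozygous arrays. The groups did not overlap, and null replicate 3 was the lowest. The mean was 900.3 ± 142 in null and 1531 ± 112 in heterozygous cells (SD, n = 3), a log2 difference of -0.78 ± 0.12 (SE), 1.71-fold lower (limma, adjusted p 0.0002). Over 18 alternatives the difference ranged from -0.86 to -0.62 and was never called at the 2-fold threshold.

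The relatives of Tcl1 in the same cluster on chromosome 12 did not pass. Tcl1b3 averaged 1100 ± 30.1 in null and 1073 ± 360 in heterozygous cells (SD, n = 3), at a log2 difference of 0.10 (limma adjusted p 0.722), and Tcl1b1, at intensities near 50, was at -0.11 (0.855). Both were read by probe sets ending in _x_at, whose probes may bind other copies of the family. Of 5 tested genes among the Tcl1 relatives and AKT kinases, 0 were called and 1 passed the adjusted p: Akt2, higher at 0.27 (0.0143). Akt2 was at -0.12 without probe sets that may share sequence. Akt1 was at 0.08 (0.622). On the other side of Tcl1, the non-coding RNA Tunar averaged 55.8 ± 16.2 in null and 116 ± 38.5 in heterozygous cells, a log2 difference of -1.04 (0.0236). Tunar was not called without null replicate 1 (-0.93) or 2 (-0.93), nor without heterozygous replicate 1 (-0.81) or 3 (-1.02, adjusted p 0.0659). Its call was lost too on log2(intensity + 16) (-0.86), after quantile normalization (-0.96) and when each array was centred on its median (-0.89). Atg2b, an autophagy gene, was at -0.11 (0.547).

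L1td1, the protein of LINE-1 origin, was slightly higher in null cells. It read 17876, 18000.3 and 16795 in null arrays and 16043, 14875 and 14001 in heterozygous arrays. The groups did not overlap, with null replicate 3 and heterozygous replicate 1 the nearest to each other. This gave a log2 difference of 0.23 ± 0.07 (SE), 1.17-fold higher (limma, adjusted p 0.0118). It did not pass without heterozygous replicate 3 (0.18, adjusted p 0.0553) or with eBayes without an intensity trend (0.068).

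The genes of LIN28, a partner of human L1TD1, and of other RNA-binding proteins of ES cells differed in both directions, more of them lower. Of 5 tested, 1 was called lower (Lin28a, 5.91-fold), 0 were called higher, 3 passed the adjusted p as lower and 1 as higher, and the median was -0.45. Igf2bp3, an mRNA-binding protein, averaged 1228 ± 59.5 in null and 2030.2 ± 13.6 in heterozygous cells (SD, n = 3), a log2 difference of -0.73 (limma adjusted p 9.22e-06), and the let-7 target Trim71 was lower at -0.45 (0.000655). Igf2bp1, a relative of Igf2bp3, was at 0.21 (0.028), but at -0.20, -0.19 and -0.17 without null replicate 1, 2 and 3. On a single probe set these values would average to 0.21. Each fit chose the brightest probe set anew, so the fits did not all read the same probe set. The sign of the Igf2bp1 difference depends on which one was read. Beside L1td1 on chromosome 4, Kank4 rose to 450 ± 18.9 in null cells, against 145 ± 17.4 in heterozygous cells, 3.12-fold (2.9e-06), while Patj, a cell polarity scaffold, was lower at -0.36 (0.0262), and Usp1, a deubiquitinase, was at 0.13 (0.195) and Tm2d1 at -0.10 (0.549).

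**Figure D3:**
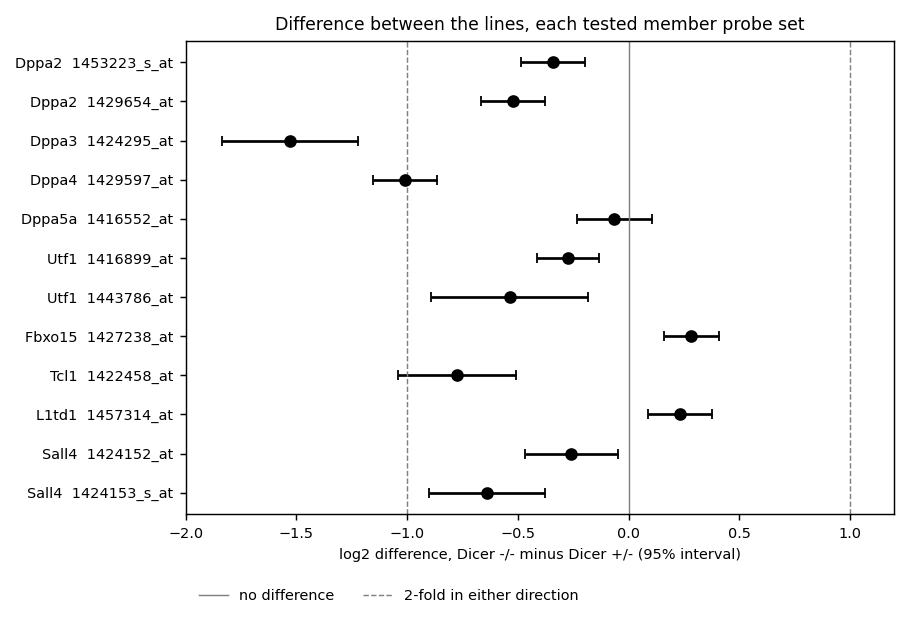
Log2 difference (null minus heterozygous) of each tested member probe set with its 95% interval from limma, over all tested probe sets; the solid line marks no difference and the dashed lines 2-fold. Dppa3 lies wholly beyond 2-fold, the interval of Dppa4 straddles it, Fbxo15 and L1td1 lie above 0, and the interval of Dppa5a includes 0.

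Promoter sequence was at hand for 3 of the 9 members, and it is shown for all 3, whatever the direction of their difference. Utf1 and Tcl1 were lower and L1td1 higher. Each is 250 bases before and 50 bases after the start of the gene, from RefSeq, build GRCm38.p6, written 5′ to 3′ along the gene's strand, with capitals for matches to the motifs searched.
Utf1, chr7:139943606-139943905, plus strand: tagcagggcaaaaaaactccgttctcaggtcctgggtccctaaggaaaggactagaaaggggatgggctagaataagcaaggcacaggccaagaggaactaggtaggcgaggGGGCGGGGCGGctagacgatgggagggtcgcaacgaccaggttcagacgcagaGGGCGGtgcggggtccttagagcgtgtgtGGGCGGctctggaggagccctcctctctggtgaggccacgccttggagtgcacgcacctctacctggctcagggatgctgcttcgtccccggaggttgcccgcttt
Tcl1, chr12:105222688-105222987, minus strand: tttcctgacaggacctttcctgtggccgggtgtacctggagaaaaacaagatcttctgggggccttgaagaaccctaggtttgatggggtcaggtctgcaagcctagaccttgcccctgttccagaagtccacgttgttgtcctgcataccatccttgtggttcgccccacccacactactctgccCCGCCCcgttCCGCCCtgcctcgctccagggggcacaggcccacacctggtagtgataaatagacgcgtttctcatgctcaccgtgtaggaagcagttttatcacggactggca
L1td1, chr4:98726504-98726803, plus strand: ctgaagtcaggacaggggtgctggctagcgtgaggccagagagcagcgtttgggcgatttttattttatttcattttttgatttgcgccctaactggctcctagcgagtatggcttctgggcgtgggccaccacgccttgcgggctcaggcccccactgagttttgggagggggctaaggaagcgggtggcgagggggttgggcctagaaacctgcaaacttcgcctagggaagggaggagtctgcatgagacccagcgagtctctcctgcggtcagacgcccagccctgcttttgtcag
The motifs searched, on both strands, were the octamer bound by Oct4 (ATTTGCAT), a Sox core (CATTGTT), an Esrrb element (TCAAGGTCA), a GC box bound by Sp and Krüppel-like factors (GGGCGG) and a TATA box (TATAAA). The GC box was the only one found: 4 times in Utf1, the first pair overlapping by 1 base, 2 times in Tcl1 on the opposite strand, and 0 times in L1td1. Of all 32851 promoters of this length, 35.7% hold a GC box, 13.6% the TATA box, 3.78% the Sox core, 1.74% the octamer and 0.423% the Esrrb element. The GC content of the windows was 62.0% in Utf1, 56.7% in Tcl1 and 58.7% in L1td1. A match is a description of these letters and was not tested against binding or against the direction of a gene's difference.

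Other ES cell genes gave the setting for the members. Of 13 tested, 1 was called lower (Lin28a) and 0 higher; 4 passed the adjusted p as lower and 3 as higher, and the median was -0.13, or 0.03 with arrays centred on their medians. Eras, a RAS-like GTPase of ES cells, averaged 2339 ± 356 in null and 3961 ± 229 in heterozygous cells (SD, n = 3), a log2 difference of -0.77 (limma, adjusted p 9.34e-05). Sox2 was at 0.13 (0.252), Zfp42 (Rex1) at -0.07 (0.458) and Esrrb at -0.17 (0.0833). Nr0b1 (Dax1), a nuclear receptor of ES cells, was higher at 0.45 (0.000128), and the co-receptor Tdgf1 (Cripto) was lower at -0.23 (0.00583).

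Markers of other cells differed between the lines as well. Of 10 primitive endoderm markers, 5 were called lower and 0 higher, with a median of -1.39, and their summed intensity was 816 to 872 in null and 2188 to 3022 in heterozygous arrays. Dab2, an endocytic adaptor, fell to 155 ± 20.9 in null cells, against 683 ± 125 in heterozygous cells, the laminin Lama1 to 296 ± 4.73, against 1007 ± 106, the receptor Cubn to 68.9 ± 17.2, against 255 ± 64.5, and the factor Gata6 to 38.3 ± 21.5, against 108 ± 21.6 (SD, n = 3). Amn was also called lower. The other 5, all of low intensity, did not pass. Gata4 was at -0.09 (limma adjusted p 0.87), Pdgfra at -0.23 (0.727) and Sox7 at -0.66 (0.22). Sox17 was at -1.42 (0.105) and Foxa2 at -1.36 (0.144). Of 9 genes of early differentiation, 1 was called higher (the eye and neural factor Pax6, at 1.93) and 3 lower. Among the latter were Fgf5 (-2.74) and Pou3f1 (-1.87), genes of the primed epiblast. The low-intensity trophectoderm factor Cdx2 was the third, at 11.9 in null and 72.8 in heterozygous cells. Without the size limit, 3 of the 9 were higher and 5 lower. Otx2, of the same neural and epiblast list, was higher at 0.32 (limma adjusted p 0.00446). It averaged 1760 ± 104 in null and 1406 ± 58.3 in heterozygous cells. Sox1 was higher at 0.90 (0.0181). The summed intensity of the 9 genes was 3156 to 3467 in null and 3859 to 4303 in heterozygous arrays. Fibroblast markers, 10 genes, summed to 605 to 667 in null and 512 to 563 in heterozygous arrays, but without Dcn the sums were 351 to 402 in null and 496 to 545 in heterozygous arrays. Of the 7 tested, 1 was called higher and 1 lower, and the median was -0.52. Dcn rose to 263 ± 56.6 in null cells, against 31.0 ± 23.8 in heterozygous cells, and Col1a1 fell to 6.62 ± 1.91, against 70.0 ± 28.0. The null values of Col1a1, 4.44 to 7.99, were under the filter of 32 units, which it passed through heterozygous arrays alone. Thy1 was lower at -0.52 (limma adjusted p 0.0305), and Postn and Fap were under 32 on every array. Whether cells of these kinds were present, and their part in the differences of Dppa3, Dppa4 and the other members, was not tested.

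**Figure D4:**
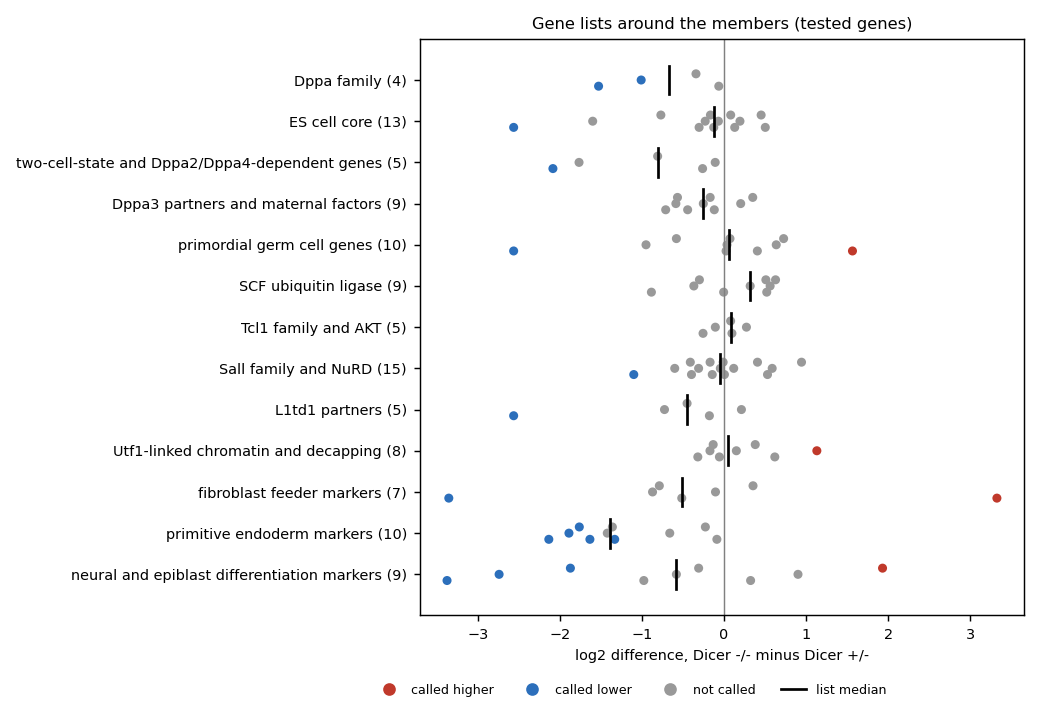
Log2 difference (null minus heterozygous) of every tested gene of the 13 lists, with the number tested in brackets, called genes in red (higher) or blue (lower) and the list median as a black bar. The Dppa family median was -0.68 over 4 genes, the ES cell list was centred near 0, and the primitive endoderm markers had the lowest median, -1.39.

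For Dppa3 and Dppa4, the genes with the most similar values over the 6 arrays were sought, as the smallest root mean square distance between log2 values centred on each gene's mean. Nearest to Dppa3 were Dedd2 (distance 0.04), a death effector domain protein, the ERK pathway inhibitor Spry4 (0.07) and the sodium iodide transporter Slc5a5 (0.08), whose log2 differences were -1.47, -1.55 and -1.57. Nearest to Dppa4 were Dpm2 (0.02), a subunit of dolichol-phosphate-mannose synthase, Ifrd2 (0.02) and the mitochondrial import gene Timm8a1 (0.04), whose log2 differences were -0.98, -0.99 and -1.004. The distances describe 6 arrays that fall into 2 lines and carry no test.

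Null replicate 3 read lowest of its line for 7 of the 9 members, compared with 37.6% of all tested genes, and replicates 1 and 2 for 1 member each. Among heterozygous arrays, replicates 1, 2 and 3 were lowest for 3, 2 and 4 members. Without null replicate 3, Dppa4 lost its call and Dppa3 kept it.

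**Figure D5:**
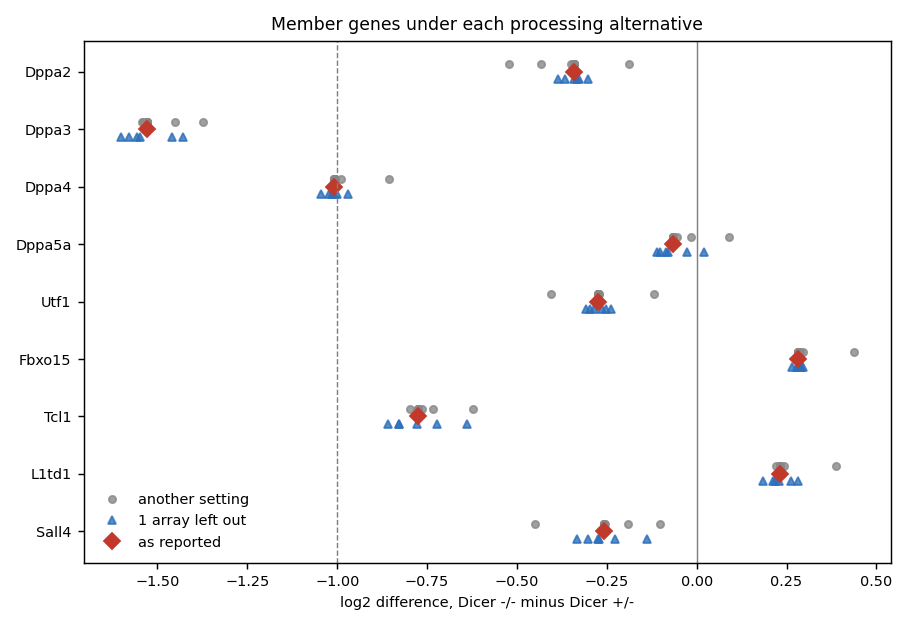
Log2 difference (null minus heterozygous) of the 9 members as reported (red diamonds), under other processing settings (grey circles) and with 1 array left out (blue triangles); the dashed line marks 2-fold lower. Dppa3 stayed between -1.60 and -1.37, Dppa4 lay on both sides of -1, and only Dppa5a changed sign.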

How the data were processed

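Total RNA was amplified into biotin-labelled cRNA and read on Affymetrix arrays, per the labels. The deposited intensities are on a linear scale with 1 value for each of 45101 probe sets; every array has the same mean after trimming 2% at each end. GCRMA is the only tool in the submitters' processing notes, and where it entered is not given in the sources used here. No detection calls were used, so the number of arrays and the floor limit the precision.

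Values were turned into log2. Of the probe sets, 64 controls were left out, 34945 named 1 gene, 932 several and 9160 none; 0 symbols changed on update through RefSeq's GRCm38.p6 table. The filter on low values kept probe sets with log2 intensity of 5 or more (32 units) on 3 arrays or more, leaving 26545 probe sets and 12927 genes, each gene being its brightest probe set. Tests used limma 3.58.1 in R 4.3.3 (lmFit, eBayes with an intensity trend), two-sided, group as the only term. P-values for probe sets were adjusted over all tested probe sets. On simulated data for these 12927 genes, calls were made for 8% of genes given a log2 change of 0.75, 84% at 1.5, 94% at 2.5 and 100.0% at 4, and 0.0157% of unchanged genes. A call needs a log2 difference of at least 1, so few genes changed by 0.75 can be called. Of those, 58% passed the adjusted p. The simulation changed 50 genes at each size and left 12727 unchanged. In the real data 48.8% of genes passed the adjusted p, so these shares do not carry over directly.

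The members and the 13 lists (138 symbols, 19 without a probe set of their own in the annotation) were chosen with earlier results of these data known. Genes named are the members, up to 4 called genes per list (with fewer than 2 called, up to 2 at the adjusted p alone), the nearest 2 tested genes on either side of a member and the 3 nearest patterns of called members; other genes were named after their values were seen. Same-numbered arrays of the lines had correlated deviations from the line means of 0.03, 0.03 and 0.08, so the numbers were not taken as pairs.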

Additional observations from a re-analysis of the deposited data

How the results depend on the processing

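Each result was recomputed under other filters, log scales, variance priors, normalizations, ways to combine probe sets, array weights and thresholds, with the replicate number as a block, and without each array. All 9 members kept their direction except Dppa5a, which was 0.090 with arrays centred on their medians and ranged from -0.11 to 0.021 without 1 array (0.021 without null replicate 3). Dppa3 was called in 18 of 18 alternatives and Dppa4 in 15; Dppa4 was short of 2-fold with arrays centred on their medians (-0.86), with array weights (-0.99) and without null replicate 3 (-0.97, in a range from -1.05 to -0.97 without 1 array), so that 1 member was called lower in each of these; the cause was not tested. Over the fits without 1 array, 1 to 2 members were called lower and 0 higher. The adjusted p alone gave 2 members higher and 6 lower, and, in the other listed genes, 25 higher and 36 lower against 4 and 12. Of all genes, 934 were called higher and 802 lower. A log2 filter of 7 left 525 lower among 9559 genes tested, and no limit on size gave 3162 and 3143. Arrays centred on their medians gave 1263 higher and 575 lower. Those medians, 44.9 to 52.7 units, lie near the filter of 32 units, so this setting aligns the arrays on signals of low intensity. With the replicate block, Dppa3 and Dppa4 stayed at -1.53 and -1.01 with 937 genes called higher and 809 lower, and no member's call changed.

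The other genes named in the text changed sign as follows: with arrays centred on their medians, Tcl1b1 (0.048), Atg2b (0.042), Tm2d1 (0.050), Zfp64 (0.060), Pou5f1 (0.029), Zfp42 (0.085), Skp1 (0.15), Nkx2-5 (0.047) and Zfp57 (0.035); with quantile normalization, Tcl1b1 (0.036), Skp1 (0.0062) and Nkx2-5 (0.029); with array weights, Trat1 (-0.25), Tcl1b1 (0.0056) and Skp1 (0.014); with the mean over probe sets, Skp1 (0.10); without probe sets that may share sequence, Akt2 (-0.12) and Atg2b (0.0082). Without 1 array, the range was -0.41 to 0.052 for Tcl1b1, -0.20 to 0.32 for Tcl1b3, -0.19 to 0.048 for Atg2b, -0.18 to 0.025 for Tm2d1, -0.19 to 1.08 for Trat1, -0.28 to 0.28 for Nkx6-2, -0.13 to 0.0017 for Zfp42, -0.022 to 0.020 for Skp1, -0.048 to 0.16 for Akt1, -0.20 to 0.27 for Igf2bp1, -0.60 to 0.020 for Duxf3 and -0.32 to 0.031 for Nkx2-5. The cause of these changes was not tested, other than that centring raised each gene's difference by the same amount. The probe set read for Igf2bp1 was not the same in all fits. List medians turned with arrays centred on their medians for the ES cell genes (0.03) and the Sall and NuRD genes (0.11), and in 1 to 3 alternatives each for the germ cell, SCF, Tcl1, Utf1-linked and fibroblast lists. Intensities near the floor limit the genes of low signal, Cd96, Col1a1, Gsta2, Neto1 and Zfp352 among them.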
